A study of Mus musculus with 59 samples.

Results

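H3K4me3 and H3K27ac were compared in the uterus of mice aged 28 or 36 weeks, called aged group 1, and of young mice aged 9 to 11 weeks, each mark on its own. The comparison holds 22 of the 59 libraries of the series, 11 for each mark, with 4 aged group 1 and 7 young mice. All of them were C57/B6 mice, and no treatment or altered allele is given in the labels for either group. Within aged group 1, replicates 1 and 2 were 28 weeks old and replicates 3 and 4 were 36 weeks old. Each library came from 1 numbered mouse, and the same mice gave both marks. Nuclei were taken from frozen pieces of endometrial tissue, although the tissue label is the whole uterus, and chromatin was cut with micrococcal nuclease and precipitated without crosslinking from a small number of nuclei. All peaks of the deposited tables on chromosomes 1 to 19 and X were tested, 25827 for H3K4me3 and 54354 for H3K27ac. Values are log2 RPKM, reads in a peak scaled to its length in kilobases and to the library's total reads (reads per kilobase per M reads, M being the prefix mega), and a difference of 1 on this scale is 2-fold.

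H3K4me3 is a histone mark of active and poised gene starts, laid down by SET1 and MLL complexes, and H3K27ac is laid down by the acetyltransferases p300 and CBP at active promoters and enhancers. In the uterus, the oestrogen receptor Esr1 and the progesterone receptor Pgr direct the cyclic growth and differentiation of epithelium and stroma, and the stroma decidualises when an embryo implants. Uterine receptivity is known to decline with reproductive age in mice. A promoter peak is here a peak within 1000 bases of a RefSeq start of the gene the tables give for it.

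The promoters of 3 genes are printed because each had the smallest p of its mark and direction among named peaks that lie at a promoter: Gcnt2 for higher and Kcnc1 for lower H3K4me3, and Foxc1 for higher H3K27ac. None of the named peaks with lower H3K27ac lay at a promoter. The sequences run 5′ to 3′ from 250 bases before to 50 bases after the start, on the plus strand, from RefSeq on GRCm38.p6. Capitals mark the motifs found on either strand: in Gcnt2 and Kcnc1 the E-box CANNTG, and in Foxc1 GGTCA, a single arm of the oestrogen response element, and the CCAAT box (ATTGG on the other strand).
Gcnt2 chr13:40859518-40859817: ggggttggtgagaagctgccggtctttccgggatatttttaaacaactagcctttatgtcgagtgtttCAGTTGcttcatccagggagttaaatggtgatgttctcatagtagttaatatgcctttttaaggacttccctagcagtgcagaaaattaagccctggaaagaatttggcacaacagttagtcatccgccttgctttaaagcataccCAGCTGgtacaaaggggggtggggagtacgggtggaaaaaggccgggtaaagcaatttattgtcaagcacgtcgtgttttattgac
Kcnc1 chr7:46396218-46396517: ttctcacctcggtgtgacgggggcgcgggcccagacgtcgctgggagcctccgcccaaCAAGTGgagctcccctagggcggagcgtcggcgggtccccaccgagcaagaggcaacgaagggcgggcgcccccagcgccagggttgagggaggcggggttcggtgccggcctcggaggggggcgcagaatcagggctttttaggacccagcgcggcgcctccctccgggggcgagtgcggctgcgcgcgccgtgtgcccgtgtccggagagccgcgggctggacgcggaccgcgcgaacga
Foxc1 chr13:31806396-31806695: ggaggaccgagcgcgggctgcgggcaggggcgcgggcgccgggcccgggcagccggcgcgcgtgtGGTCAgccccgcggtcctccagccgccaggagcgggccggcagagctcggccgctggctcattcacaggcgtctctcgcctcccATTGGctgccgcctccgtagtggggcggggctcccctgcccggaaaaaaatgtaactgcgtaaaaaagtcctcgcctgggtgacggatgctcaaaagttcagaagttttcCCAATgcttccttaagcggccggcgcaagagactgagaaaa
The Gcnt2 window held 8 CG pairs and was 44.7% G or C, against 41 pairs and 74.7% for Kcnc1 and 32 pairs and 67.3% for Foxc1. Over all 32851 promoters of the RefSeq table the medians were 7 pairs and 52.7%. An E-box was found in 72.3% of those promoters, the single arm in 40.5% and the CCAAT box in 37.4%. The palindromic oestrogen response element GGTCANNNTGACC was searched too, is in 0.07% of all promoters and was not found in these 3 windows. Overlapping matches of 2 motifs were not seen in them.

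The read depth that the values give back was 7.23 to 48.3 M reads for the H3K4me3 libraries of aged group 1, where replicate 3 was the deepest, and 7.83 to 12.8 M for young. For H3K27ac it was 10.4 to 13.4 M in aged group 1 and 8.70 to 13.3 M in young. The share of reads in peaks was 46.6 to 59.9% in aged group 1 and 39.7 to 75.8% in young for H3K4me3, and 39.8 to 47.7% and 32.3 to 48.7% for H3K27ac. The mouse numbers in the labels form 1 close run in aged group 1 and a far lower run in 6 of the 7 young mice, so age and whatever those numbers stand for can hardly be told apart; young replicate 2, with a high number, is the exception. Replicate 4 of aged group 1 (36 weeks) stood apart in both marks. It was at least 2-fold above all 10 other libraries at 333 H3K4me3 peaks and 849 H3K27ac peaks, against 2 to 46 and 0 to 121 peaks for the other libraries, and its markers are given with the cell types further on. The epithelium-minus-stroma difference of marker levels was −0.58, −0.79, −0.62 and −0.52 in aged group 1, against −1.42 to −0.28 in young, for H3K4me3. For H3K27ac it was −0.37, −0.53, −0.34 and −0.30 in aged group 1, against −1.08 to 0.08 in young. In both marks all 4 aged group 1 libraries lay above 5 of the 7 young libraries and below young replicates 4 and 5. With this difference as a covariate, 1 H3K4me3 peak, the same one, and 1 H3K27ac peak passed the test described next; its part in other differences was not tested.

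Almost nothing passed the test between the 2 groups. Of the H3K4me3 peaks, 1 passed at an adjusted p under 0.05, which is 0.00387% of those tested, and it was higher in aged group 1. Of the H3K27ac peaks, 0 passed (0.0%) in limma on the normalized values and 0 in limma-voom on the recovered reads. At an unadjusted p under 0.05, 545 H3K4me3 peaks were higher (2.11%) and 387 lower (1.5%), and 1170 H3K27ac peaks were higher (2.15%) and 964 lower (1.77%). This split follows the scaling: on the values as deposited it was 175 higher and 950 lower for H3K4me3 and 2579 and 72 for H3K27ac, where the median change of all peaks is −0.26 and 0.12, and with median centring it was 817 and 137, and 1132 and 417. The fit pools the spread of all 4 age groups, so mice older than aged group 1 also enter the standard errors and p. Fitted on the 11 libraries alone, these counts were 732 higher and 750 lower for H3K4me3, and 1317 and 1837 for H3K27ac, and 0 peaks passed. All 4 aged group 1 libraries lay above every young library at 124 H3K4me3 peaks (0.48%) and below every one at 109 (0.422%). For H3K27ac these were 184 peaks (0.339%) and 214 peaks (0.394%). In a tissue of several cell types, fewer cells of a type and less of a mark per cell cannot be told apart.

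Each interval bounds the change of a single peak on the normalized values. The intervals are not adjusted for the number of peaks, so they do not give the size of change the test could miss. Nor do they cover a shift shared by all peaks, which the normalization removes. The 95% interval of the change lay wholly within 2-fold in either direction at 20452 H3K4me3 peaks (79.2%) and 39636 H3K27ac peaks (72.9%). At promoter peaks it did so at 11738 of 12921 (90.8%) and 10879 of 12027 (90.5%), where the median standard error was 0.12 and 0.18. The median absolute change over all peaks was 0.11 for H3K4me3 and 0.18 for H3K27ac. The median SD between single libraries was 0.23 and 0.37 within aged group 1, and 0.25 and 0.37 within young. A difference of group means varies less than single libraries do, so these SDs cannot show whether the changes exceed noise. Estimated changes over 2-fold were found at 147 higher and 81 lower H3K4me3 peaks and at 107 higher and 148 lower H3K27ac peaks, and 1 of all these peaks passed the test.

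**Figure D1:**
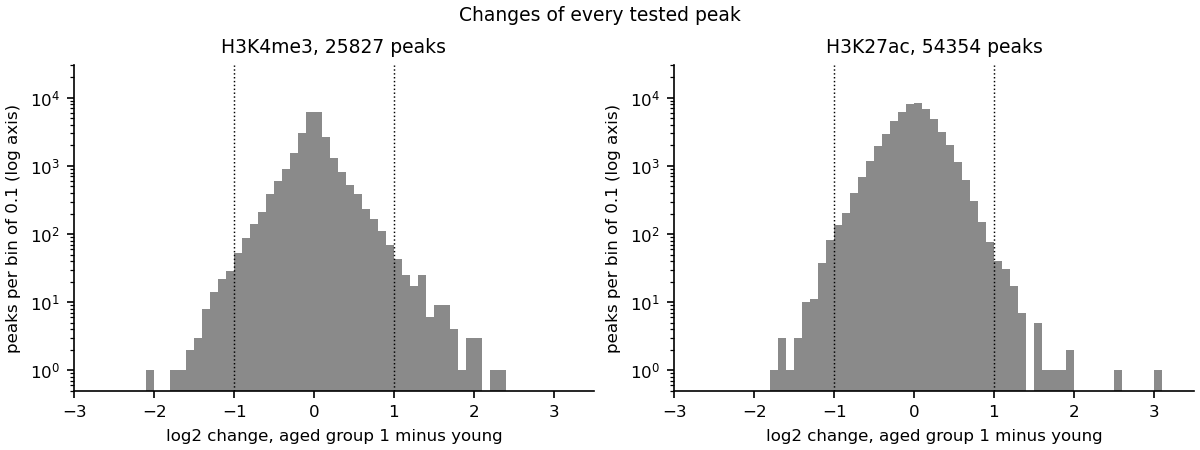
Number of peaks (log axis) in each 0.1-wide bin of the log2 change, aged group 1 minus young, for H3K4me3 (left) and H3K27ac (right); dotted lines mark 2-fold. Quantile normalization gives every library the same distribution, so the centring of both near 0 follows from the scaling. On the values as deposited the median changes were −0.26 and 0.12. Few peaks lie outside the lines: 147 and 81 H3K4me3 peaks, 107 and 148 H3K27ac peaks.

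The H3K4me3 peak that rose in aged group 1 lies at chr8:72032075-72033077 (GRCm38) and carries the name Gm45734, a predicted gene; its near edge is 2153 bases from the pseudogene RefSeq lists under that name. The nearest other RefSeq genes are predicted genes too, Gm18924 at 2990 bases and Gm25052 at 4565 bases, and Cyp4f18, a fatty acid hydroxylase of the cytochrome P450 family, lies 22407 bases away. Its level was 1.72, 1.13, 1.21 and 1.76 log2 RPKM in aged group 1, against −0.81, −0.12 and 0.23 (lowest, median and highest) in young. All 4 aged group 1 libraries lay above all young ones. The change was 1.66 ± 0.28 on the log2 scale (SE; 4 against 7 mice; adjusted p = 0.0463), with 1.63 for the 28-week and 1.70 for the 36-week mice alone. The H3K27ac peak over the same place had 0.15, 0.55, 0.14 and −0.48 in aged group 1, against −2.34, −0.18 and 0.29 in young, and overlapped between the groups, with a change of 0.69 ± 0.40. The H3K4me3 levels stand for 35, 20, 104 and 25 reads in aged group 1 and for 5, 9 and 14 in young. By its mean over the 27 libraries, the peak lies under the lower quartile of H3K4me3 peaks. The call is near the threshold. It is lost without any single aged group 1 library (adjusted p 0.150, 0.0938, 0.117 and 0.304 without replicates 1 to 4) and without young replicates 2, 3, 5 or 6 (0.0863, 0.0618, 0.0983 and 0.0651), while the change stays between 1.56 and 1.77 in all of them. No other peak passed in those fits. Without young replicate 7 Gm45734 passed with 2 others, 3 peaks in all, and without young replicate 4 with 1 other, 2 in all. With the digit of the library codes in the model, a label both groups share, it did not pass (adjusted p = 0.161), nor within the digits that hold both groups (0.365).

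Among H3K4me3 peaks of named genes, the 5 with the smallest p above young did not pass. Card6 encodes a protein with a caspase recruitment domain. Its peak within the gene (chr15:5106275-5108995) had 3.70, 3.29, 3.41 and 3.55 log2 RPKM in aged group 1, against 2.36, 2.88 and 3.06 in young, a change of 0.71 ± 0.14 (adjusted p = 0.111). The groups did not overlap, and the H3K27ac peak there differed by 0.41 ± 0.18. Gcnt2, whose promoter is printed above, encodes an enzyme that adds branches to poly-N-acetyllactosamine chains on cell surface glycans. Its promoter peak (chr13:40859329-40865700) had 3.77, 4.07, 3.52 and 3.67 in aged group 1, against 2.80, 2.98 and 3.66 in young, a change of 0.67 ± 0.13 (adjusted p = 0.111). Only young replicate 7 reached into the range of aged group 1; without it the adjusted p is 0.00773, and with the digit of the library codes in the model it is 0.0342. H3K27ac at Gcnt2 differed by 0.35 ± 0.15. Pik3cg encodes the gamma catalytic subunit of phosphoinositide 3-kinase, which is abundant in leukocytes. Its promoter peak (chr12:32207890-32209391) had 3.56, 3.53, 3.24 and 3.90 in aged group 1, against 2.13, 2.49 and 2.90 in young, a change of 1.09 ± 0.23 (adjusted p = 0.204). The groups did not overlap, and replicate 4, the library with high leukocyte markers, had the highest value. With young replicates 1 to 4 alone, a choice made after seeing the data, the adjusted p is 0.0303.

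The other 2 were Rilpl1 and Snf8. Rilpl1 encodes a RILP-like protein that binds Rab proteins on membranes. Its peak within the gene (chr5:124496689-124497418) had 2.08, 1.73, 2.11 and 1.96 in aged group 1, against −1.06, 0.01 and 1.59 in young, a change of 1.63 ± 0.36 (adjusted p = 0.263). The young libraries spread widely and all of them lay lower. Snf8, a subunit of the ESCRT-II complex of endosomal sorting, had 4.61, 4.56, 4.58 and 4.64 at its promoter (chr11:96034097-96036011) in aged group 1, against 4.25, 4.32 and 4.48 in young. This small change, 0.26 ± 0.07 (adjusted p = 0.620), did not overlap between groups but came to −0.013 on the values as deposited, without quantile normalization.

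**Figure D2:**
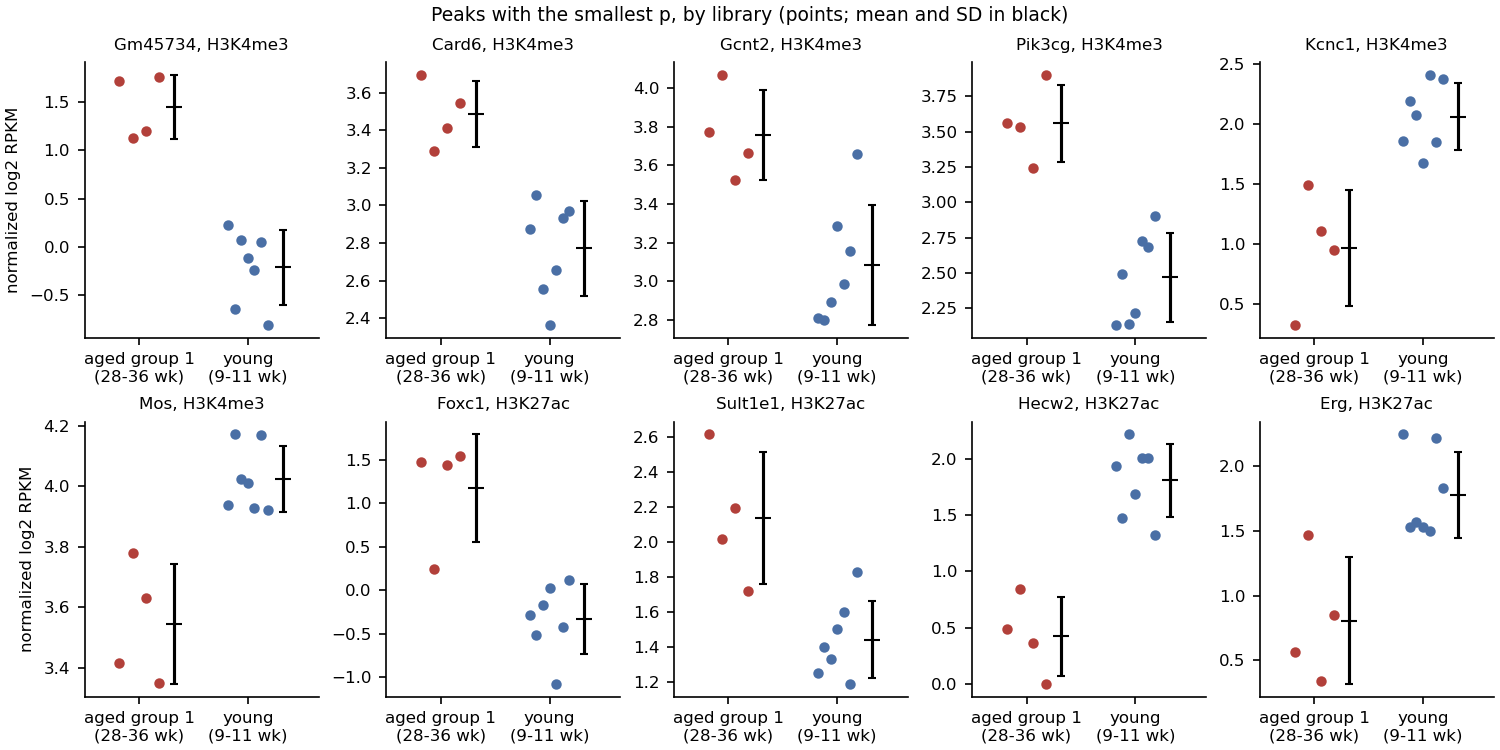
Normalized log2 RPKM of single libraries (points) with the mean and SD in black, aged group 1 (4 mice) left of young (7 mice), for 6 H3K4me3 and 4 H3K27ac peaks with small p. Gm45734 passed the test; the other 9 panels show peaks that did not, most of them with groups that do not overlap.

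The 5 named H3K4me3 peaks with the smallest p below young did not pass either. Mos encodes a kinase known for holding the oocyte in meiosis. The peak near it (chr4:3874413-3875846) had 3.42, 3.78, 3.63 and 3.35 log2 RPKM in aged group 1, against 3.92, 4.01 and 4.17 in young, a change of −0.48 ± 0.12 (adjusted p = 0.620). H3K27ac there differed by −0.40 ± 0.18, so both marks had the lower mean in aged group 1. Kcnc1, which encodes a voltage-gated potassium channel, had 0.32, 1.49, 1.10 and 0.95 at the promoter printed above (chr7:46396089-46396776), against 1.67, 2.07 and 2.41 in young, a change of −1.09 ± 0.30 (adjusted p = 0.722). No H3K27ac peak overlaps it. Gnasas1 is an antisense transcript of the imprinted Gnas locus, whose overlapping transcripts cannot be told apart by a histone mark. Its promoter peak (chr2:174294177-174296307) had 2.20, 1.53, 1.79 and 2.08 in aged group 1, against 2.40, 2.59 and 2.64 in young, a change of −0.66 ± 0.19 (adjusted p = 0.728, and 0.0324 in limma-voom on recovered reads). These 3 peaks did not overlap between the groups.

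Igdcc3 encodes a cell surface protein of the immunoglobulin superfamily. Its peak within the gene (chr9:65162649-65163516) had 1.45, 1.28, 1.73 and 0.86 in aged group 1, against 1.72, 2.31 and 2.66 in young, a change of −0.89 ± 0.25 (adjusted p = 0.728). Here replicate 3 reached just into the young range. Nup88, a protein of the nuclear pore, had 4.45, 4.30, 4.44 and 4.44 at its promoter (chr11:70968291-70971449), against 4.50, 4.55 and 4.78 in young, a change of −0.18 ± 0.05 (adjusted p = 0.728). The groups did not overlap, though the difference is small.

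For H3K27ac, the 5 named peaks with the smallest p above young each had an adjusted p of 1.0. Foxc1 encodes a forkhead transcription factor of mesenchymal and vascular development. Its broad promoter peak (chr13:31805367-31812683) had 1.47, 0.24, 1.44 and 1.54 log2 RPKM in aged group 1, against −1.08, −0.28 and 0.11 in young, a change of 1.51 ± 0.32. H3K4me3 at the same start had 3.28, 2.51, 3.46 and 3.16 in aged group 1, against 1.71, 2.22 and 2.50 in young, a change of 0.92 ± 0.26 (adjusted p = 0.728). In both marks every aged group 1 library lay above every young one, replicate 2 by the smallest margin. Sult1e1 encodes oestrogen sulfotransferase, which inactivates oestrogens. The peak assigned to it (chr5:87572469-87574753) is 16858 bases from its start and had 2.62, 2.02, 2.20 and 1.72 in aged group 1, against 1.19, 1.40 and 1.83 in young, a change of 0.70 ± 0.16. Replicate 4 lay below the highest young library. The H3K4me3 peak there differed by 0.77 ± 0.23 (adjusted p = 0.782).

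Morrbid is a long non-coding RNA known in mice for regulating the lifespan of myeloid cells. The H3K27ac peak within it (chr2:128383718-128384691) had 1.96, 0.88, 1.43 and 1.14 in aged group 1, against −1.10, −0.01 and 0.47 in young, a change of 1.52 ± 0.35, and the groups did not overlap. Epm2aip1, which encodes a partner of the glycogen phosphatase laforin, had 1.73, 2.12, 1.86 and 1.25 within the gene (chr9:111274913-111275425), against −0.61, 0.54 and 1.57 in young. This was a change of 1.24 ± 0.30 with groups that overlapped. Slc16a10, an aromatic amino acid transporter, had 1.37, 1.85, 1.66 and 1.74 at its promoter (chr10:40141491-40142312), against −0.63, 0.65 and 1.30 in young. The change was 1.15 ± 0.28 and the groups did not overlap.

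The 4 H3K27ac peaks described here from those with the smallest p below young lie within genes, overlap no H3K4me3 peak and have an adjusted p of 1.0. Hecw2 encodes a ubiquitin ligase. Its peak (chr1:54126022-54127320) had 0.49, 0.84, 0.36 and −0.00 log2 RPKM in aged group 1, against 1.32, 1.94 and 2.22 in young, a change of −1.39 ± 0.29. Erg encodes an ETS transcription factor of endothelial cells. The peak within it (chr16:95572842-95573746) had 0.56, 1.47, 0.34 and 0.85 in aged group 1, against 1.50, 1.57 and 2.25 in young, a change of −0.97 ± 0.24. At the promoter of Erg, H3K4me3 went the other way, with 2.60, 2.24, 2.82 and 3.37 in aged group 1, against 1.18, 1.91 and 2.49 in young, a change of 0.90 ± 0.31 that did not pass. Zbtb8a, a zinc finger protein (chr4:129357336-129358679), differed by −1.01 ± 0.25, and Il16, a cytokine that binds CD4 (chr7:83716698-83718766), by −0.96 ± 0.24. At these 4 peaks every aged group 1 library lay below every young one, narrowly at Erg and Il16.

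Within aged group 1, the 36-week mice did not differ from the 28-week mice at any peak past the threshold. In this contrast of 2 against 2 mice, 0 H3K4me3 peaks (0.0%) and 0 H3K27ac peaks (0.0%) passed in limma. At an unadjusted p under 0.05, 421 H3K4me3 peaks were higher and 373 lower at 36 weeks, and 845 H3K27ac peaks were higher and 544 lower. Set against young on their own, neither age passed at any peak: 0 for 28 weeks and 0 for 36 weeks in both marks. The Foxc1 promoter differed from young by 1.82 at 36 weeks and by 1.19 at 28 weeks in H3K27ac, the Hecw2 peak by −1.63 and −1.14, and the Card6 peak by 0.71 and 0.72 in H3K4me3.

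Among 16 genes known to direct uterine fertility, none passed the test in either mark. A promoter peak was measured for 12 of them in H3K4me3 and for 10 in H3K27ac; Lif, Hand2, Hoxa10 and Hoxa11 had none in either table and are not analysed here, nor are Foxa2 and Bmp2 for H3K27ac. The receptors were close to young. Esr1 had 4.20 ± 0.22 log2 RPKM of H3K4me3 in aged group 1 and 4.26 ± 0.14 in young (SD, n = 4 and 7), a change of −0.06 ± 0.11 (SE), and −0.16 ± 0.10 in H3K27ac. Pgr differed by −0.20 ± 0.13 in H3K4me3 and by 0.04 ± 0.16 in H3K27ac. Nr2f2, the stromal nuclear receptor COUP-TFII that acts downstream of progesterone, differed by −0.02 ± 0.09 and −0.21 ± 0.13. For Prlr, the prolactin receptor, H3K4me3 was 2.76, 2.54, 2.81 and 2.81 in aged group 1, against 2.92, 3.00 and 3.12 in young. All 4 lay below young, by a change of −0.29 ± 0.25 that did not pass, and H3K27ac at Prlr differed by −0.84 ± 0.43. The SD of H3K4me3 at Prlr was 0.13 in aged group 1 and 0.08 in young, but 0.43 and 0.54 in aged groups 2 and 3. The spread of those older groups enters the SE of 0.25.

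Of the epithelial factors, Foxa2 stood farthest from young. It encodes the transcription factor that uterine glands need, and its promoter had 3.20, 1.23, 2.54 and 2.08 log2 RPKM of H3K4me3 in aged group 1, against 0.28, 0.76 and 1.41 in young. The change was 1.39 ± 0.42 (adjusted p = 0.805), with replicate 2 inside the young range. Ltf, the oestrogen-induced secreted protein lactoferrin, differed by 1.35 ± 1.06 in H3K4me3 and 0.61 ± 0.49 in H3K27ac, with errors almost as large as the changes. Ihh, the epithelial signal to the stroma, differed by −0.03 ± 0.42 and −0.29 ± 0.42, and Sox17, a factor of uterine epithelium, by 0.13 ± 0.22 and −0.14 ± 0.16. The Wnt ligands Wnt4, needed for decidualisation, and Wnt7a, of the luminal epithelium, differed by −0.25 ± 0.32 and −0.36 ± 0.27 in H3K4me3 and by −0.65 ± 0.37 and −0.26 ± 0.30 in H3K27ac. Bmp2, a growth factor of decidualisation, differed by −0.15 ± 0.24 in H3K4me3. Msx1, a homeobox factor of the receptive uterus, differed by 0.14 ± 0.18 in H3K4me3 and −0.04 ± 0.20 in H3K27ac.

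**Figure D3:**
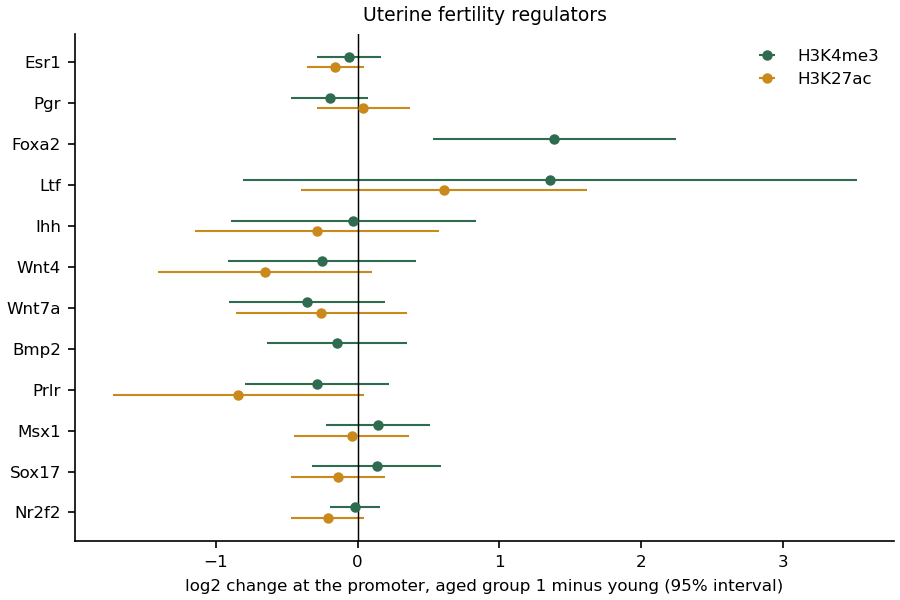
Log2 change at the promoter of each measured fertility regulator, aged group 1 minus young, with its 95% interval, for H3K4me3 and H3K27ac. Of the H3K4me3 intervals, that of Foxa2 alone lies wholly off 0, and none of these changes passed the test over all peaks.

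The markers of the main tissue cells were found in all libraries of both groups, as the tissue label has it, and none of their genes passed. In H3K4me3 the luminal and glandular epithelium list averaged 2.57 to 2.87 log2 RPKM in aged group 1 and 2.23 to 3.03 in young, the endometrial stroma list 3.18 to 3.45 and 3.17 to 3.66, and the smooth muscle list 2.15 to 2.51 and 2.03 to 2.77. Their median changes were 0.03 over 27 epithelial genes (16 above 0), −0.09 over 16 stromal genes (2 above 0) and −0.02 over 14 smooth muscle genes (6 above 0), beside −0.01 over all 12441 genes with a promoter peak. In H3K27ac they were 0.03 over 26 genes (15 above 0), −0.21 over 16 (0 above 0) and −0.13 over 10 (3 above 0), beside 0.02 over all 11375 genes. Of all genes with a promoter peak, 5940 of 12441 were above 0 in H3K4me3 and 6126 of 11375 in H3K27ac. Without replicate 4 the epithelial medians were 0.12 (21 of 27 above 0) and 0.09 (16 of 26), and the stromal ones −0.03 (5 of 16) and −0.19 (2 of 16). The stromal genes with the highest mean over the 27 libraries, Nr2f2 and the homeobox gene Meis1, differed by −0.21 ± 0.13 and −0.17 ± 0.13 in H3K27ac, and by −0.02 ± 0.09 and 0.03 ± 0.10 in H3K4me3. Cldn3, a tight junction protein of epithelium, differed by −0.03 ± 0.18 in H3K4me3, Pax8, a factor of the uterine epithelium, by 0.06 ± 0.14 in H3K27ac, and the contractile genes Smtn and Cald1 by −0.02 ± 0.10 and −0.12 ± 0.30 in H3K4me3 and by −0.14 ± 0.13 and −0.12 ± 0.24 in H3K27ac.

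Most blood and lymphatic endothelial genes had a mean above young in H3K4me3, and no gene of these lists passed in either mark. The blood endothelium list had a median H3K4me3 change of 0.35 over 15 genes, 13 of them above 0, and 0.32 without replicate 4; in H3K27ac it was 0.06 over 12 genes, 7 above 0, and −0.02 without it. Kdr, the VEGF receptor, had 3.03, 3.04, 3.21 and 3.03 in aged group 1, against 2.26, 2.86 and 2.98 in young. The 4 libraries lay above all young ones by a narrow margin, with a change of 0.29 ± 0.22. Sox7 and Sox17, the genes of this list with the highest mean H3K4me3 over the 27 libraries of all ages, differed by −0.02 ± 0.29 and 0.13 ± 0.22, and Esam, an endothelial adhesion molecule, by −0.20 ± 0.23 in H3K27ac. The lymphatic endothelium list had a median of 0.38 over 5 genes in H3K4me3, all above 0, and −0.04 for the 1 gene measured in H3K27ac, Pdpn, which encodes podoplanin (−0.18 without replicate 4). Pdpn had 3.11, 3.21, 3.04 and 3.13 of H3K4me3 in aged group 1, against 2.57, 2.75 and 3.03 in young, a change of 0.38 ± 0.22. Mmrn1, which encodes multimerin of platelets and endothelium, had 2.64, 0.92, 2.45 and 2.52, against −0.55, 0.62 and 1.37 in young, a change of 1.60 ± 0.47 (adjusted p = 0.728) with replicate 2 inside the young range. Prox1, the lymphatic identity factor, differed by 0.20 ± 0.23. The pericyte list had medians of −0.14 (0 of 4 genes above 0; −0.09 without replicate 4) and −0.05 (1 of 4), with Notch3 and Kcnj8 at −0.24 ± 0.16 and −0.12 ± 0.24 in H3K4me3 and Pdgfrb and Kcnj8 at −0.07 ± 0.32 and 0.07 ± 0.23 in H3K27ac.

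The average of leukocyte markers stood out in 1 of the 4 aged group 1 mice, replicate 4. The macrophage and monocyte list averaged 1.40, 1.09, 1.33 and 3.26 log2 RPKM of H3K4me3 in aged group 1, against 0.82, 1.40 and 1.48 in young (lowest, median and highest). In H3K27ac it averaged 0.94, 0.45, 0.79 and 2.34 in aged group 1, against 0.48, 0.77 and 0.89 in young. Replicate 4 was the highest of the 11 libraries at 16 of 16 macrophage genes in H3K4me3 and 7 of 8 in H3K27ac, all but Aif1. Over the list the median change was 0.51 (15 of 16 above 0) and 0.45 (8 of 8), and without replicate 4 it was 0.05 (9 of 16) and −0.04 (3 of 8). The list of genes shared by all leukocytes averaged 1.78, 1.62, 1.89 and 3.48 in aged group 1, against 1.60, 1.89 and 2.10 in young, for H3K4me3, and 0.75, 0.54, 0.72 and 2.46, against 0.41, 0.74 and 1.02 in young, for H3K27ac. Its medians were 0.29 (16 of 17 above 0) and 0.41 (11 of 12), and turned to −0.23 (4 of 17) and −0.16 (3 of 12) without replicate 4.

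Csf1r, the receptor macrophages need to survive, shows the pattern: its promoter had 1.41, 1.41, 1.51 and 3.79 of H3K4me3 in aged group 1, against 0.59, 1.28 and 1.64 in young. Ptprc, the common leukocyte antigen CD45, had 2.23, 2.14, 2.18 and 3.73 in aged group 1, against 1.96, 2.20 and 2.50 in young. Replicate 4 alone stood out at both. Among all promoters, chosen after their values were seen, those where replicate 4 lay farthest above the other 10 libraries in H3K4me3 were led by Csf3r, the receptor of the neutrophil growth factor G-CSF (3.54 in replicate 4 and at most 0.90 elsewhere), C5ar1, the receptor of complement C5a (3.18 and 0.67), and the adaptor Dok3 (3.66 and 1.17). In H3K27ac they were led by Sirpb1b, a signal regulatory protein (1.96 and −0.29), Lyz2, the lysozyme of myeloid cells (2.01 and −0.22), and C5ar1 (2.54 and 0.36). The named macrophage genes differed less: Cd14, a receptor of endotoxin, by 0.18 ± 0.15 and 0.24 ± 0.16, and Aif1 by 0.27 ± 0.39 in H3K27ac. Of the pan-leukocyte genes, Ikzf3, a lymphoid factor, differed by −0.31 ± 0.21 and −0.17 ± 0.28, and Lcp1, an actin-bundling protein, by 0.37 ± 0.22 and 0.71 ± 0.33. Laptm5, a lysosomal protein of blood cells, had 1.07, 1.17, 1.05 and 2.61 of H3K27ac in aged group 1, against 0.15, 0.51 and 0.84 in young. All 4 lay above young there, with 0.99 ± 0.25 for the group and 0.61 ± 0.23 without replicate 4, and did not pass.

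**Figure D4:**
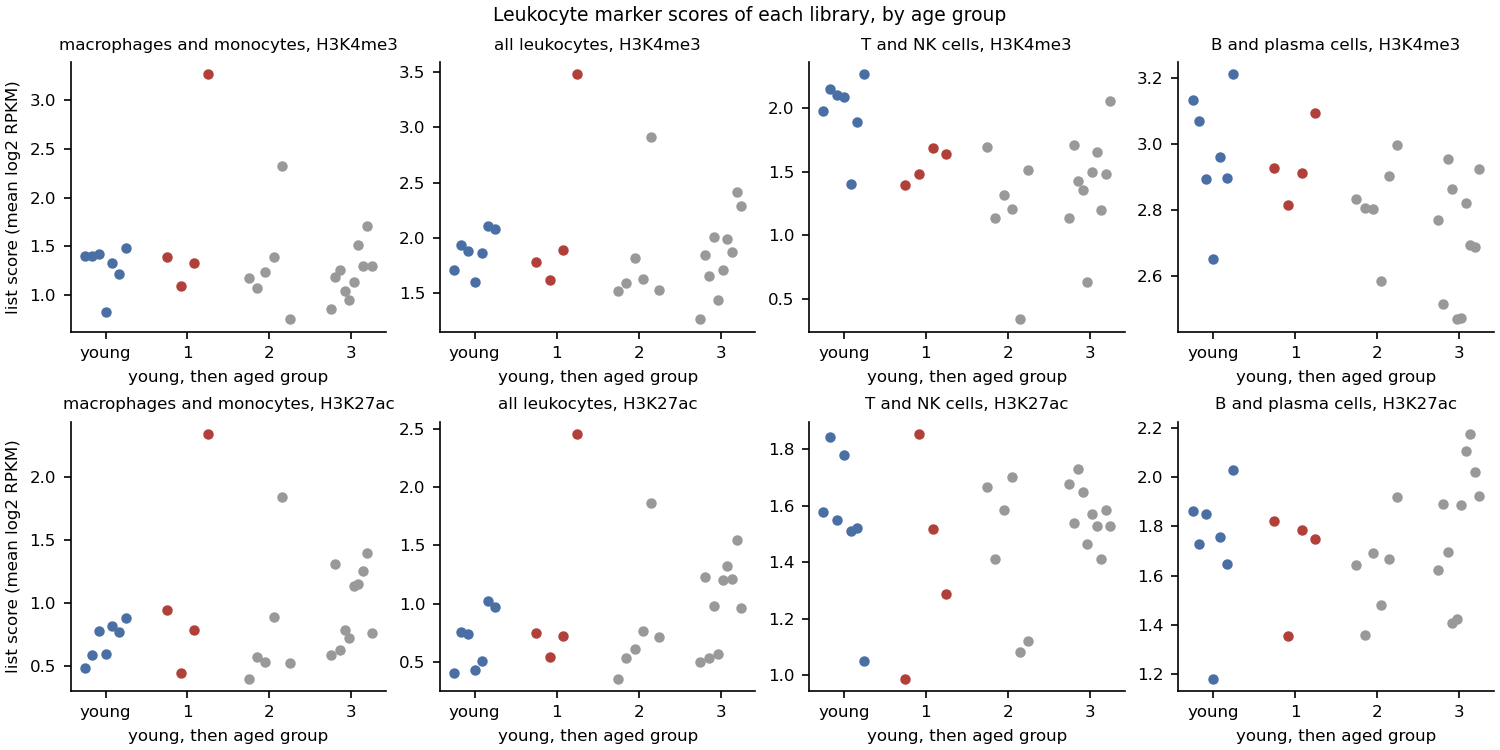
Mean log2 RPKM over the measured promoter genes of 4 leukocyte lists in each library (points), for H3K4me3 (top) and H3K27ac (bottom), from young through aged groups 1, 2 and 3. In the macrophage and all-leukocyte panels 1 of the 4 aged group 1 libraries, replicate 4, lies at 3.26 and 3.48 for H3K4me3 and 2.34 and 2.46 for H3K27ac, away from the other 3. Aged group 2 replicate 5 also lies high there, at 2.33 and 2.91 for H3K4me3 and 1.84 and 1.87 for H3K27ac.

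Lymphocyte lists did not set replicate 4 apart: it was the highest library at 0 genes of both. The T and NK cell list averaged 1.39, 1.48, 1.69 and 1.64 of H3K4me3 in aged group 1, against 1.41, 2.08 and 2.26 in young, with a median change of −0.31 over 5 genes (1 above 0) and 0.09 over 3 genes in H3K27ac (2 above 0; 0.19 without replicate 4). Ncr1, an activating receptor of NK cells, had 0.43, 0.86, 0.38 and 0.38 of H3K4me3 in aged group 1, against 1.13, 1.69 and 2.25 in young. All 4 lay below young by a change of −1.20 ± 0.54 that did not pass. Gata3 and Eomes, transcription factors of T and NK cells, differed by 0.05 ± 0.12 and −0.31 ± 0.25, and Lck and Gzma, a T cell kinase and a granzyme, by 0.08 ± 0.14 and −0.75 ± 0.40 in H3K27ac. No promoter peak was found for the T cell receptor genes Cd3d, Cd3e and Cd3g in either mark. The B and plasma cell list had medians of −0.04 (2 of 4 genes above 0) and −0.02 (1 of 3; −0.03 without replicate 4), with Xbp1 at 0.17 ± 0.11 and 0.08 ± 0.14 and Prdm1 at −0.11 ± 0.24 and −0.20 ± 0.25. The adipocyte and mesothelium list had a median of 0.02 over 5 genes (3 above 0; −0.20 without replicate 4) in H3K4me3, with Pparg at 0.18 ± 0.16 and Lrrn4 at −0.13 ± 0.33, and 0.47 ± 0.28 for Pparg alone in H3K27ac (0.19 without replicate 4).

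No pathway gene passed the test. Over all 30 lists, 502 genes were measured in H3K4me3 and 439 in H3K27ac, of 681, and 0 passed in limma in either mark, with 0.728 and 1.0 as the smallest adjusted p. At an unadjusted p under 0.05 there were 9 higher and 2 lower genes in H3K4me3 (2.19%, beside 2.61% of all promoter genes), and 16 higher and 5 lower in H3K27ac (4.78%, beside 3.10%). In no list did the average of all 4 aged group 1 libraries lie outside the young range. In H3K4me3 the median changes of the oestrogen and progesterone response lists were −0.06 over 22 genes and −0.05 over 24, and that of decidualisation and implantation was −0.03 over 22; in H3K27ac they were −0.06 over 21, −0.14 over 19 and −0.03 over 21. Without replicate 4 the progesterone medians were −0.03 and −0.06 and those of decidualisation −0.06 and 0.05, the last with its sign turned. Wnt5a, a stromal Wnt ligand, differed by −0.13 ± 0.11 and −0.16 ± 0.17, Gata2, a partner of Pgr, by −0.03 ± 0.11 in H3K4me3, and Foxo1, a decidual transcription factor, by −0.13 ± 0.07 in H3K4me3. Gja1, the gap junction protein connexin 43, differed by −0.00 ± 0.09 and Egfr by −0.25 ± 0.13 in H3K4me3, and the receptor subunits Bmpr2 and Il6st by 0.04 ± 0.12 and 0.15 ± 0.12 in H3K27ac.

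Matrix and signalling lists followed. Collagens and matrix had medians of −0.08 over 32 genes (8 above 0) and −0.19 over 30 genes (4 above 0), with Vcan and Lama4, a proteoglycan and a laminin chain, at −0.05 ± 0.16 and 0.12 ± 0.28 in H3K4me3 and Col5a2 and Sparc at −0.25 ± 0.21 and −0.21 ± 0.26 in H3K27ac. The stromal markers, several of which are matrix genes, had their lower H3K27ac median in the same libraries; the part of cell makeup in this was not tested. Without replicate 4 the collagen and matrix medians were −0.04 and −0.12. Matrix degradation had medians of −0.03 and 0.01 (0.03 without replicate 4), over 16 genes in each mark. In that list Adamts9 and Ctsl were at −0.03 ± 0.08 and −0.01 ± 0.08 in H3K4me3. The lysosomal protease Ctsb had a mean of 2.55 ± 0.08 of H3K27ac in aged group 1 and 2.29 ± 0.07 in young (SD, n = 4 and 7). Its libraries did not overlap, with a change of 0.25 ± 0.10 that did not pass, and Ctsl differed by −0.16 ± 0.12. TGF-beta signalling had medians of 0.01 over 25 genes and 0.04 over 22 (0.06 without replicate 4), with the activin receptor Acvr2a at −0.03 ± 0.07 in H3K4me3 and the corepressor Tgif1 at 0.01 ± 0.06 and 0.04 ± 0.10. Wnt signalling had −0.08 over 34 genes and −0.11 over 30 (both −0.05 without replicate 4), with the receptor Fzd1 at −0.06 ± 0.09 in H3K4me3 and the ubiquitin ligase Rnf43 at −0.09 ± 0.18 in H3K27ac.

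Lists often tied to ageing held no gene that passed. The interferon response had medians of 0.03 over 29 genes and 0.01 over 28 (0.05 and 0.03 without replicate 4), with Adar and Dtx3l at −0.01 ± 0.09 and 0.12 ± 0.09 in H3K4me3 and Mx2 and Oasl2 at −0.07 ± 0.13 and −0.07 ± 0.14 in H3K27ac. Inflammatory and senescence-associated secretion had −0.03 over 26 and 0.01 over 23, with Nfkbiz at −0.01 ± 0.10 and 0.11 ± 0.10, Nfkbia at 0.14 ± 0.12 in H3K4me3 and Rela at −0.12 ± 0.09 in H3K27ac. Senescence and cell-cycle arrest had 0.05 over 18 and 0.03 over 16 (−0.02 in H3K27ac without replicate 4), with the cell-cycle inhibitor Cdkn2c at 0.06 ± 0.05 and the lysosomal galactosidase Glb1 at 0.13 ± 0.07 in H3K4me3, and Cdkn1b and Rbl2 at 0.03 ± 0.12 and −0.05 ± 0.14 in H3K27ac. Proliferation had −0.06 over 29 and −0.09 over 27 (−0.17 in H3K27ac without replicate 4). The mitotic kinesin Kif11 was at 0.27 ± 0.20 and 0.13 ± 0.21, and the mitotic kinase Aurka at −0.03 ± 0.09 and −0.26 ± 0.12. HOX genes had −0.05 over 7 and −0.40 over 3, with Hoxb8 at 0.11 ± 0.22 in H3K4me3 and Hoxd11 and Hoxa7 at −0.40 ± 0.34 and −0.18 ± 0.31 in H3K27ac.

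Stress and housekeeping lists complete the set. Immediate early genes had medians of 0.04 over 24 genes and 0.14 over 20, of which 17 were above 0 in H3K27ac, and −0.01 in H3K4me3 without replicate 4, with Klf6 at 0.07 ± 0.06 and 0.12 ± 0.09, Myc at −0.08 ± 0.08 in H3K4me3 and Ier2 at 0.06 ± 0.11 in H3K27ac. The circadian clock had 0.03 over 14 and −0.02 over 12 (0.01 in H3K27ac without replicate 4), with Cry1 and Clock at −0.07 ± 0.07 and −0.08 ± 0.09 in H3K4me3, and Nr1d1 and Per2 at −0.07 ± 0.12 and 0.37 ± 0.14 in H3K27ac. Heat shock and protein folding had 0.06 over 20 and −0.05 over 19, with Hsp90b1 at 0.08 ± 0.06 and −0.15 ± 0.09, Pdia4 at 0.04 ± 0.11 and Hsp90ab1 at −0.13 ± 0.11 in H3K27ac. Oxidative stress had 0.06 over 21 (0.02 without replicate 4) and 0.11 over 20. Of the latter, 18 were above 0, beside 6126 of all 11375 promoter genes of H3K27ac. In that list Gclc, of glutathione synthesis, and catalase, Cat, were at −0.08 ± 0.12 and 0.03 ± 0.08 in H3K4me3, and Srxn1 and its regulator Nfe2l2 at 0.23 ± 0.15 and 0.16 ± 0.12 in H3K27ac. Chromatin regulators had −0.01 over 33 and 0.01 over 34 (0.02 in H3K27ac without replicate 4), with the H3K27 demethylase Kdm6a at 0.04 ± 0.08 and −0.08 ± 0.09 and the DNA demethylase Tet2 at −0.00 ± 0.07 and 0.09 ± 0.10. The housekeeping control genes had 0.03 and 0.04, over 12 genes in each mark, and −0.01 in both without replicate 4, with Gusb and Sdha at 0.12 ± 0.13 and 0.02 ± 0.07 in H3K4me3 and Polr2a at 0.04 ± 0.14 in H3K27ac. The fertility regulators had −0.05 over 12 (4 above 0) and −0.18 over 10 (2 above 0); without replicate 4 the first turned to 0.05 (7 above 0) and the second was −0.09 (3 above 0).

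**Figure D5:**
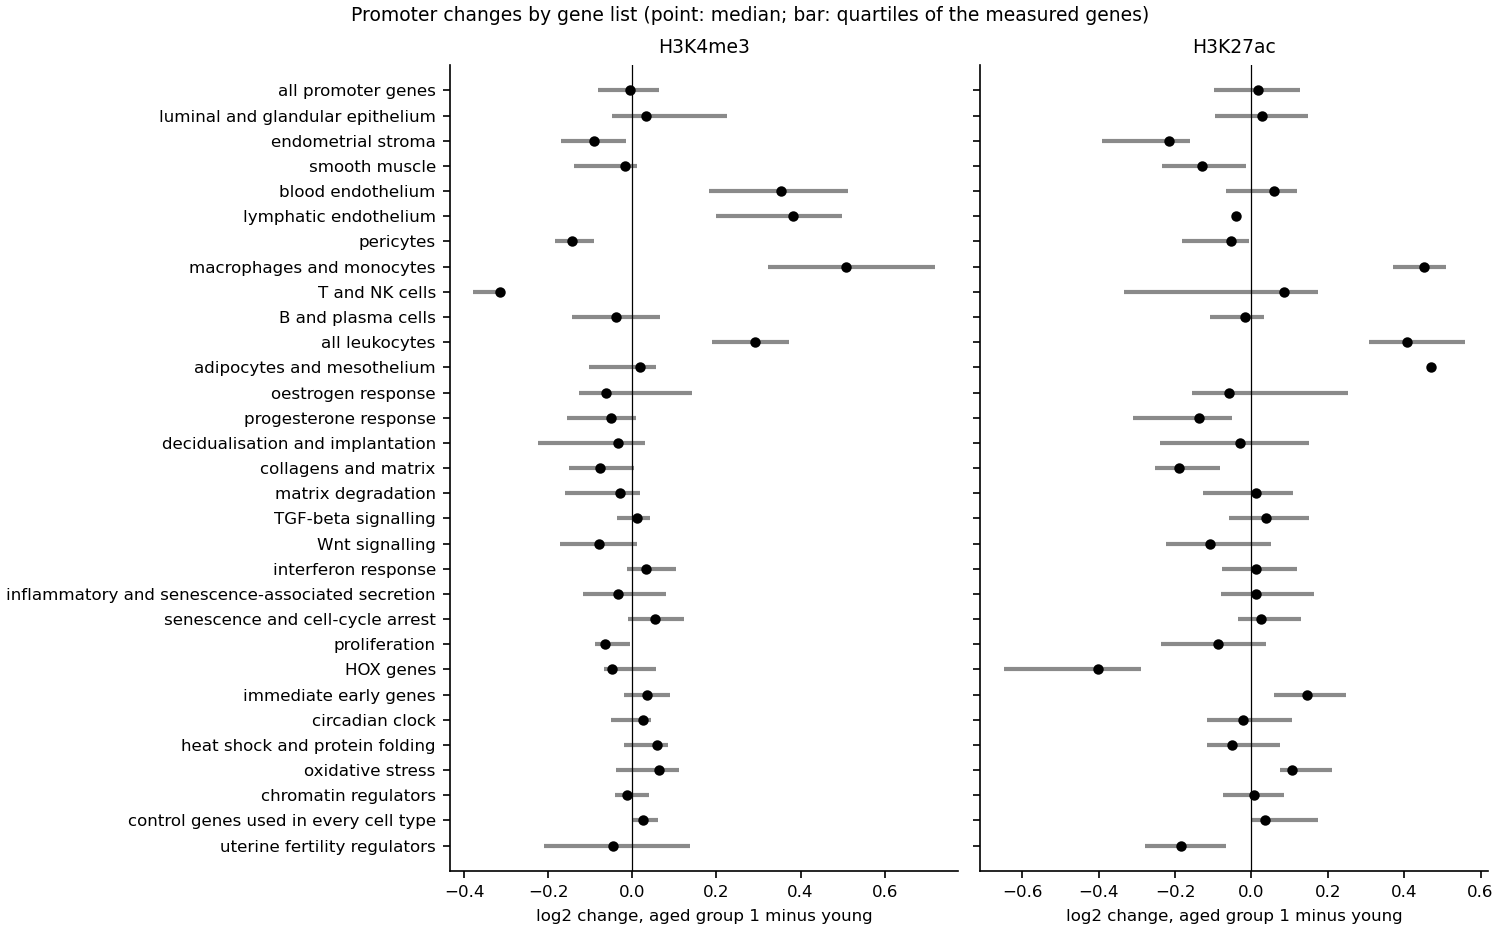
Median log2 change (point) and quartiles (bar) of the measured promoter genes of each list, aged group 1 minus young, for H3K4me3 (left) and H3K27ac (right), below all promoter genes in the top row. Most medians lie near 0; the macrophage and all-leukocyte lists lie at 0.51 and 0.29 in H3K4me3 and at 0.45 and 0.41 in H3K27ac, and without replicate 4 at 0.05 and −0.23, and −0.04 and −0.16.

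The oldest mice differed from aged group 1; this contrast and that with young share the aged group 1 libraries. Between aged group 3 (54 to 65 weeks, 10 mice) and aged group 1, 1610 H3K4me3 peaks passed (6.23%), 869 higher and 741 lower in aged group 3, and 5 H3K27ac peaks passed (0.0092%), all higher. Between aged group 2 (42 to 48 weeks, 6 mice) and aged group 1, 0 peaks passed in either mark (0.0% each). The epithelial markers moved with the first contrast: their H3K4me3 average was 2.37 to 4.05 in aged group 3, median 3.73, against 2.57 to 2.87 in aged group 1, and that of stroma was 2.15 to 3.67, median 2.69, against 3.18 to 3.45. Their part in those calls was not tested. Among the fertility regulators, the H3K4me3 of Prlr fell by 1.08 and that of Bmp2 fell by 0.97 in aged group 3 relative to aged group 1 (adjusted p = 0.0214 and 0.0251), and Wnt7a rose by 0.85 (adjusted p = 0.0445). Of the H3K4me3 peaks described above, Card6 rose by 0.58 (adjusted p = 0.0222), Foxc1 by 0.81 (adjusted p = 0.0445), Sult1e1 by 0.81 (adjusted p = 0.0335) and Nup88 by 0.16 (adjusted p = 0.0491). The mean of Card6 was 2.77 in young, 3.49 in aged group 1, 3.75 in aged group 2 and 4.06 in aged group 3. For Nup88 the means were 4.59, 4.41, 4.50 and 4.57 in the same order of age. Nup88 was named for its low values in aged group 1, so a rise from them follows in part from that choice. Gm45734, Gcnt2, Pik3cg, Rilpl1, Snf8, Mos, Kcnc1, Igdcc3 and Gnasas1 did not pass between aged group 3 and aged group 1.

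The 5 H3K27ac peaks higher in aged group 3 than in aged group 1 were assigned to Lcmt1, Gm16092, Rnf170, Alcam and no gene, and lie outside the rule for named genes. The peak within Lcmt1, which encodes the methyltransferase of the phosphatase PP2A (chr7:123420998-123422939), had 1.10, 1.48 and 1.84 log2 RPKM in aged group 3 (lowest, median and highest), against −0.83, 0.39, 0.14 and −0.81 in aged group 1. This was a change of 1.79 ± 0.25 (adjusted p = 0.0039). The young values of that peak were 0.17, 0.70 and 1.12, and aged group 1 differed from young by −0.91 ± 0.27. At Rnf170, of the endoplasmic reticulum, and Alcam, an adhesion molecule, the differences, aged group 3 minus aged group 1, were 1.67 ± 0.30 (adjusted p = 0.0493) and 2.23 ± 0.40 (adjusted p = 0.0452), at the predicted gene Gm16092 1.74 ± 0.30 and at the peak without a gene (chr16:89675052-89676784) 1.57 ± 0.28, both with an adjusted p of 0.0452. At all 5 the mean of aged group 1 was below that of young. The peaks were chosen for values lower in aged group 1 than in aged group 3, so this follows in part from that choice. The same holds for the difference from young at Lcmt1.

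Some genes that stand out in other age contrasts of the series were looked up here. Each is given at its peak with the smallest p in the comparison with young. With both choices made from these data, a level between young and the oldest mice is no separate evidence. In H3K4me3, Dst, a cytoskeletal linker, differed from young by 1.43 ± 0.38 (adjusted p = 0.647), Rusc2 by 0.99 ± 0.25 (adjusted p = 0.620) and the promoter of Smim31 by 0.95 ± 0.39, none of them past the threshold, and in aged group 3 they lay higher than in aged group 1 by 1.38, 0.83 and 1.68 (adjusted p = 0.0302, 0.0409 and 0.0214). The H3K27ac peak assigned to Gm5155 had 0.93, −1.12, −0.35 and 0.73 in aged group 1, against −4.64, −3.18 and −1.55 in young. These did not overlap, and the change of 3.09 ± 0.66, like 2.56 ± 0.64 at Ceacam12, of a family of cell adhesion molecules, had an adjusted p of 1.0. The Gm5155 peak held 67, 16, 38 and 44 reads in aged group 1, against 1, 3 and 11 in young, and the Ceacam12 peak 13, 26, 32 and 16, against 0, 1 and 15, so both folds rest on few reads of young libraries and are uncertain.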

How the data were processed

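ChIP-seq of H3K4me3 and H3K27ac was measured in 27 libraries of each mark from C57/B6 mouse uterus, 7 young and 4, 6 and 10 in aged groups 1, 2 and 3, and the 5 input libraries were not used. Per the submitters' processing notes, the build is GRCm38, and the authors used deepTools 3.5.1, Bowtie2, ChIPseeker 1.34.1, MACS2 2.2.9.1, DESeq2 and DiffBind 3.8.0, whose roles and order are not given there. The deposited tables hold 1 column of log2 RPKM per library over peaks shared by all libraries of a mark, with the gene the authors gave for peaks within 5000 bases. Each value gave back a whole number of reads within 0.05 for 100% of values, a 0 being stored as 0.9 reads, and this gave the total reads per library; intervals cover the spread between mice, not cell makeup. The 8 peaks on chromosome Y were left out of each table.

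The log2 values were quantile normalized and fitted per mark with limma 3.58.1 in R 4.3.3 (4 group means over 27 libraries, moderated with the mean-variance trend, two-sided, Benjamini-Hochberg over all peaks, threshold 0.05); the fit was checked on simulated data. Changes are aged group 1 minus young with a standard error. Samples are separate mice, grouped by the labels' ages. Of 18815 gene symbols, 16777 were found in the RefSeq table, and a promoter peak lies within 1000 bases of a start of its gene. For each gene list the peak with the highest mean per gene was used, and a list average is the mean over its measured genes in a library. The 30 lists cover cell types, hormone and implantation genes, matrix, signalling, interferon and inflammation, senescence, proliferation, HOX, immediate early, clock, stress, chromatin, control and fertility genes. Members and lists were chosen with earlier results of these data known.

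Named peaks are, per mark and direction, up to 10 past the threshold, filled to 5 by smallest p where fewer passed, leaving out predicted gene names and peaks whose higher group mean is under the lower quartile, with 1 peak per gene; Gm45734 is named as the peak that passed, and its predicted name puts it outside that rule. In each list the 2 genes with the highest mean over the 27 libraries are named, and others named from a list, such as Kdr, Mmrn1, Ncr1, Csf1r, Ptprc and Laptm5, were chosen after their values were seen. The overlapping peak of the other mark needed 1 shared base. The values of some genes that these rules name are not reported here. Of 34 named genes, 25 matched the RefSeq promoter table. Alternatives were the values as deposited, median centring, the 11 libraries alone, peaks under the lower quartile left out, limma-voom on recovered reads, the library code digit, the mouse number series or the epithelium-minus-stroma level as a covariate, a replicate block, single ages, and each library left out.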

Additional observations from a re-analysis of the deposited data

Results flagged for a closer look

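In 14 of the 166 groups of values checked, 1 library lay far from the others of its group; chance gives about 1 in 20. Among peaks and promoters, H3K4me3 at Nup88 was 4.30 log2 RPKM in aged group 1 replicate 2 (nearest other library 4.44), H3K27ac at Foxc1 was 0.24 in aged group 1 replicate 2 (nearest 1.44), H3K4me3 at Pgr was 3.41 in aged group 1 replicate 4 (nearest 4.10), and H3K27ac at Ltf was 1.31 in young replicate 5 (nearest −0.15). Among library measures, the H3K4me3 depth of aged group 1 replicate 3 was 48.3 M reads (nearest 11.4), and the share of H3K4me3 reads in peaks was 39.7% in young replicate 5 (nearest 64.8%).

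Among list averages, aged group 1 replicate 4 lay apart in the macrophage and monocyte list of H3K4me3 at 3.26 (nearest 1.40) and in the list of all leukocytes at 3.48 for H3K4me3 (nearest 1.89) and 2.46 for H3K27ac (nearest 0.75). Young replicate 4 lay apart in the macrophage list of H3K4me3 at 0.82 (nearest 1.21). The interferon response list was 3.12 in aged group 1 replicate 3 (nearest 3.40, H3K4me3), the B and plasma cell list 1.35 in aged group 1 replicate 2 (nearest 1.75, H3K27ac), the T and NK cell list 1.05 in young replicate 7 (nearest 1.51, H3K27ac) and the oestrogen response list 1.36 in young replicate 5 (nearest 0.99, H3K27ac).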

How the results depend on the processing

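The count of H3K4me3 peaks higher in aged group 1 was 1. It was 0 on the values as deposited, with the 11 libraries alone, without peaks under the lower quartile, with the run of mouse numbers as a factor, in the 28-week or 36-week libraries alone and with the replicate block over replicates 1 to 4, and 2 in limma-voom on recovered reads, which also gave 2 lower peaks. It was 4 with the code digit as a factor (Gcnt2, Gm13481, Pde7b and a peak with no gene) and, in a fit chosen after seeing the data, 2 within the code digits that hold both groups (Sfi1 and Gm21188); Gm45734 is not among them. The 1 peak that passed without the 3 libraries that lie apart was Gm24305. Gm45734 itself lies under the lower quartile, so the fit without those peaks left it out and did not test it. Leaving out 1 library at a time gave 0 to 3. For H3K27ac, with 0 higher and 0 lower, the count was 1 higher (Gm5155) with the epithelium-minus-stroma level as a covariate, and 8 higher and 1 lower within those code digits, 3 libraries against 3. Gm45734 kept its direction in the 24 alternatives in which it was tested, with changes from 1.37 to 1.92 and adjusted p from 0.00442 to 1.0; leaving out the 3 libraries that lie apart gave the last. Snf8 reversed to −0.013 on the values as deposited, where the median change of all peaks shifts to −0.26 for H3K4me3 and 0.12 for H3K27ac; the cause was not tested. Deviations of same-numbered libraries of the 2 groups had correlations of 0.109, 0.030, −0.015 and −0.044 for H3K4me3, and 0.191, −0.014, −0.015 and 0.039 for H3K27ac. The value of 0.191, for replicates 1, was the highest of all pairings in H3K27ac. These values cannot settle whether the numbers pair the mice, which the labels do not state. Gm45734 fell short of the threshold in 18 of those 24; of the peaks named for a small p that had not passed, Gcnt2, Pik3cg and Gnasas1 gained a call, in 4 values together.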
